A study of Mus musculus with 21 samples.

Results

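The 39 members are all genes of the table whose symbol is Hox, then a, b, c or d, then a number alone, out of 20284 genes. They were followed in single cells sorted live from back skin of CD1 mouse embryos at E15.0, when dermal fibroblasts gather into dermal condensates, the cell clusters under the epidermis that help to start a hair follicle. The wells came from 9 plates (libraries), and the name of each well gave its population: 1371 Fb (fibroblast) wells in libraries 1 to 7, 149 DC0, 152 DC1 and 151 DC2 wells. The DC wells are called condensate wells here. All groups share strain, age and tissue, and the labels give no treatment and no mutation for these libraries. The labels name no sorting gate for the wells. They do not define DC0, and the order DC0, DC1, DC2 is taken from the numbers. The series text says that stages were found by clustering the cells, so the well names may rest in part on the RNA values themselves, and the labels do not say whether libraries came from separate animals, so that p-values measure the spread between libraries.

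Hox genes encode homeodomain transcription factors and lie in 4 clusters, HoxA to HoxD, each a row of genes numbered from 1 to 13. As background, low-numbered genes are active toward the head and high-numbered genes toward the tail, so the set of active Hox genes marks the position of a cell along the body, and fibroblasts of adult skin are known to keep such a set. Genes of the same number in different clusters are paralogues with related proteins. Hox proteins bind DNA together with TALE cofactors such as Pbx and Meis proteins.

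In mm10 (GRCm38, GENCODE M21 genes) the HoxA members lie on chromosome 6, the HoxB members on chromosome 11, the HoxC members on chromosome 15 and the HoxD members on chromosome 2. Hoxc8 spans chr15:102990607-102994111 on the plus strand and Hoxc10 spans chr15:102966796-102971893. Exons of 4 members overlap those of another member: Hoxc5 shares 5.37% of its exonic bases with Hoxc10, and Hoxd3 and Hoxd4 share 9.26% and 13.2%. Reads from such bases could be split in counting. Exons of 10 members are overlapped by an antisense gene, and whether counting used strand is not given in the sources used here.

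Promoter windows are printed for 4 of the members that passed a test between populations. Hoxd1 and Hoxd4 were higher in DC2 wells, Hoxa10 was lower in condensate wells and Hoxa2 in DC1 wells. Hoxd9 and Hoxa9 also passed a test and had a window, which is not printed. Each run holds the 250 bases before a RefSeq start (GRCm38.p6), 5′ to 3′ on the gene's strand. The windows are chr2:74762730-74762979 (plus strand) for Hoxd1, chr2:74721728-74721977 (plus) for Hoxd4, chr6:52164832-52165081 (minus) for Hoxa2 and chr6:52234940-52235189 (minus) for 1 of 2 RefSeq starts of Hoxa10. Capitals mark exact matches, on either strand, to a joint Pbx and Hox motif (TGATNNAT), a homeodomain core (TAATTA), a Meis motif (TGACAG), the core promoter element bound by the TBP protein, here called the TBP box (TATAAA), and the widespread promoter element CCAAT.
Hoxd1: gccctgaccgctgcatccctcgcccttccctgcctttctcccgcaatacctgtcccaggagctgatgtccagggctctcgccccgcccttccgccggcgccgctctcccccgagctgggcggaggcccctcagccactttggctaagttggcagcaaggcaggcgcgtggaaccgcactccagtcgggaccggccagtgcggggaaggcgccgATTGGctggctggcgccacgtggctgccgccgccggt
Hoxd4: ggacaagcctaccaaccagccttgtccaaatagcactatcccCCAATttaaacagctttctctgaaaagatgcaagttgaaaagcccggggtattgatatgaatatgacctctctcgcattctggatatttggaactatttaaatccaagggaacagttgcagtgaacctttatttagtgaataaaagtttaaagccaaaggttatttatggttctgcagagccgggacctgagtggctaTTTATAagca
Hoxa2: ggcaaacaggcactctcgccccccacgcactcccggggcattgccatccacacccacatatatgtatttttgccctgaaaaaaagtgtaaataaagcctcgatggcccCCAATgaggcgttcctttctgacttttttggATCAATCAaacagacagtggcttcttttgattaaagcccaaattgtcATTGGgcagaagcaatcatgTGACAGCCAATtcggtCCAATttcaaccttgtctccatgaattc
Hoxa10: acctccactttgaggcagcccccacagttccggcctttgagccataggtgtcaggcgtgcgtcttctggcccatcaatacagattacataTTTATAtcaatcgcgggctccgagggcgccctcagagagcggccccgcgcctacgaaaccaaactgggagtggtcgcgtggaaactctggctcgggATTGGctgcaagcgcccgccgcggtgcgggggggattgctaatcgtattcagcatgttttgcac
The Hoxd1 window, which overlaps an exon of the antisense gene Haglr, held 1 CCAAT box. The Hoxd4 window held a CCAAT box and, close to the start, a TBP box. The Hoxa2 window held 1 joint Pbx and Hox motif, a Meis motif that directly abuts a CCAAT box, and 4 CCAAT boxes in all. The Hoxa10 window held a TBP box and a CCAAT box. The windows of Hoxd9, Hoxa9 and the other Hoxa10 start, not printed, held none of these motifs. Of 27025 promoter windows of the same length, 7.91% held TGATNNAT, 4.90% TAATTA, 16.0% TGACAG, 13% TATAAA and 34.5% CCAAT. A match is a string of letters and not a measured site. Of the 39 members, 22 had a window in that table.

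Sums of UMIs (unique molecular identifiers, 1 per RNA molecule caught at its 3′ end) were taken over the wells of a population in a library and are given as CPM, the usual counts-per-million scale. Because a molecule gives 1 UMI whatever its length, CPM was not divided by gene length. Fb sums held 2372569 to 6033442 UMIs from 132 to 220 wells. In libraries 1 to 7 the condensate sums were much smaller, with 2 to 8 wells per stage and 2855 to 191382 UMIs. Library 8 held 83.2% of all DC0 wells (1475360 UMIs) and 80.8% of all DC2 wells (1359197 UMIs), and library 9 held 80.3% of all DC1 wells (1436924 UMIs). Labels name the same sequencing run for libraries 3, 5, 6 and 7, a different run for each of libraries 1 and 2, and none for libraries 4, 8 and 9. All 6 fibroblast markers were detected in every population, with a summed level of 40750 to 50540 CPM in Fb sums and 8162 to 22650 CPM in sums of the 3 condensate stages. The 6 condensate markers (Sox2, Sox18, Foxd1, Cxcr4, Bmp4 and Prdm1) summed to 59.9 to 97.6 CPM in Fb and 631 to 4837 CPM in the condensate stages.

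In fibroblast wells the HoxC cluster held most of the Hox RNA. It took 70.2% ± 4.0 (SD, n = 7 libraries) of all Hox UMIs, with HoxA at 12% ± 1.76, HoxB at 9.57% ± 1.80 and HoxD at 8.23% ± 1.71. The HoxC share ranged from 63.3% in library 4 to 74.9% in library 5, and in each of the 7 libraries it was above the other 3 clusters together. By number, genes 4 to 8 took 63.6% ± 3.84, gene 9 took 13.1% ± 1.86, gene 10 took 13% ± 3.08 and genes 1 to 3 took 10.1% ± 2.02. Genes 11 to 13 took 0.299% ± 0.202. All members together gave 637 ± 56.8 CPM.

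Of the 39 members, 3 had a mean of at least 50 CPM, 10 lay between 10 and 50 CPM, 14 between 1 and 10 CPM, and 12 under 1 CPM. The highest was Hoxc8, a thoracic-level gene of the middle of the cluster, at 188.29, 214.11, 181.01, 144.62, 238.17, 201.08 and 206.48 CPM in libraries 1 to 7. It alone made up 30.6% of the 20013 Hox UMIs of Fb wells. Its level stood above that of every other member in every library.

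Hoxc6, a neighbour also tied to the thoracic region, was at 77.0, 51.8, 68.1, 48.8, 79.6, 61.9 and 72.6 CPM. Hoxc10, a gene of the lumbar region and hindlimb, was at 39.6, 65.8, 93.2, 30.3, 84.7, 75.1 and 52.9 CPM. Hoxc6 and Hoxc10 overlap across libraries, and their means of 65.7 ± 12 and 63.1 ± 23.3 CPM differ by less than their SD. The next members in order of mean level were Hoxc4 (45.8 ± 5.99 CPM), Hoxc9 (40.8 ± 10.2 CPM), Hoxc5 (36.2 ± 6.95 CPM), Hoxa9 (26.6 ± 6.36 CPM), Hoxa10 (20.6 ± 3.13 CPM) and Hoxb2 (19.9 ± 3.39 CPM), and each differed from the next by less than the larger SD of the pair, except that Hoxc5 stood above Hoxa9 by more. Hoxd8, Hoxb3, Hoxd3 and Hoxd4 followed at 17.3, 13.3, 12.1 and 10.3 CPM.

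Within HoxC the drop after number 10 was steep. Hoxc11 and Hoxc12 gave 1 UMI each, and Hoxc13 gave 3 UMIs, in 7 libraries of Fb wells. HoxD fell off earlier: Hoxd9 was at 9.37 ± 2.18 CPM, while Hoxd10 (8 UMIs), Hoxd11 (5 UMIs) and Hoxd13 (2 UMIs) were near 0. HoxA reached Hoxa11 at 1.21 ± 0.799 CPM. No UMI of Hoxd12 was found in any well named for cells, and 0 UMIs of 30731513 in Fb sums allow a level of up to 0.0976 CPM (3 counts), which covers counting error only. In HoxB, the members that stood highest were at the low-numbered end: Hoxb2, Hoxb3 and Hoxb4 (9.72 ± 1.98 CPM). Hoxb5 to Hoxb8 lay between 0.708 and 3.23 CPM, and Hoxb9 was at 7.04 ± 1.90 CPM.

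**Figure D1:**
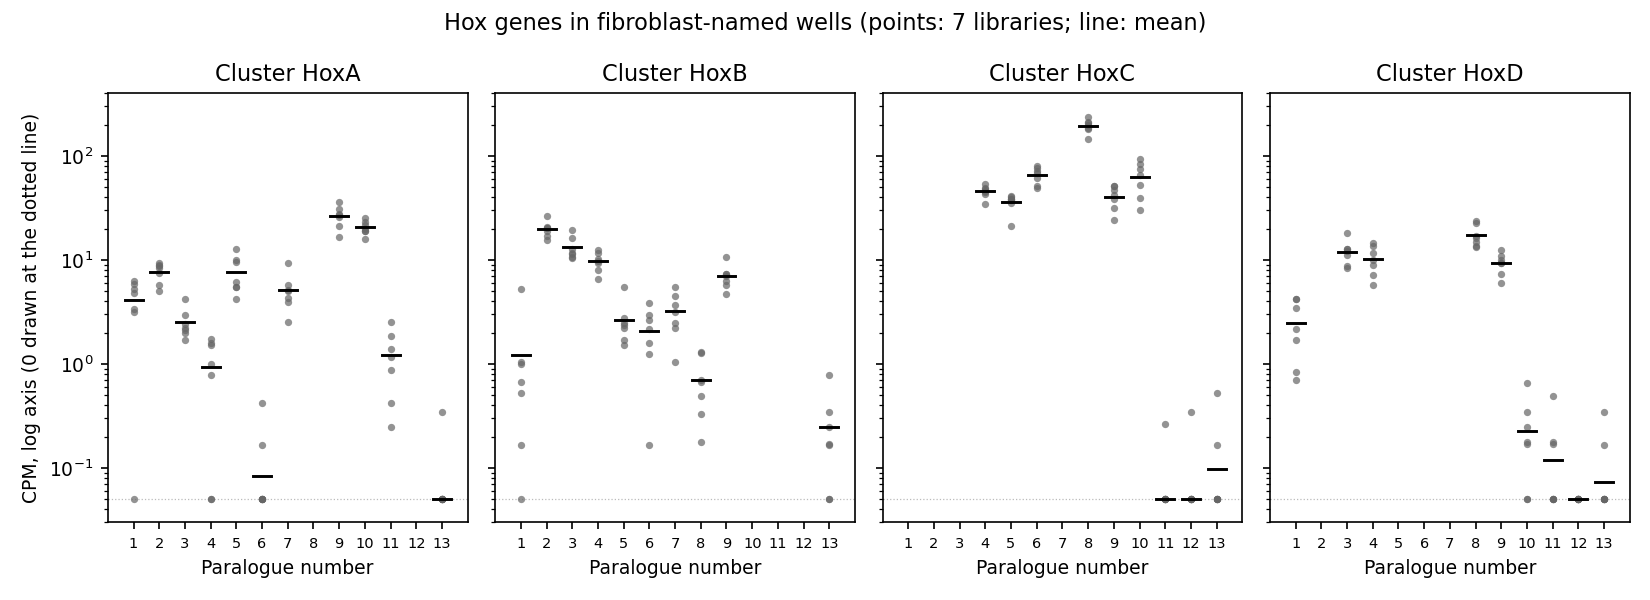
CPM on a log axis for the 39 members in Fb sums against the number of the gene in its cluster, 1 panel per cluster; points are the 7 libraries, black lines the mean, and values of 0 and means under the dotted line are drawn on it. By mean, HoxC members 4 to 10 stand above the other clusters. Points of single libraries overlap: in library 2 Hoxc5 was at 21.1 CPM and Hoxa9 at 27.4 CPM. Members 11 to 13 are near 0 in each cluster except for Hoxa11 at 1.21 CPM.

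Libraries differed in how far toward the tail-end genes the Hox UMIs reached. The ratio of Hoxc10 to Hoxc4 UMIs was 0.808, 1.36, 2.68, 0.561, 1.97, 1.64 and 1.17 in the Fb sums of libraries 1 to 7. The lowest, in library 4, had a 95% counting interval of 0.427 to 0.734, and the highest, in library 3, one of 2.28 to 3.17. Libraries 3, 5 and 6, with the highest ratios, share a named run with library 7, which lay below library 2. Whether the plates hold different stretches of back skin is not stated in the labels and was not tested.

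A Hox UMI was found in 80.0% of Fb wells thinned to 3000 UMIs (924 of 1155, exact binomial 95% interval 77.6% to 82.3%, counting error only) and in 88.5% of the 1371 unthinned wells. Such a thinned well held UMIs of 1.62 Hox genes on average and of 6 at most. Hoxc8 was found in 37.4% of thinned wells (32.0% to 43.5% across libraries) and in 65.0% of unthinned wells. Hoxc10 was found in 15.2% of thinned wells (8.24% in library 4 to 22.9% in library 3), yet a single unthinned well held up to 33 of its UMIs. As background, wells named for spike-ins held a Hox UMI in 28.5% of cases (16 such wells per library), at a median depth of 431 UMIs against 18509 in Fb wells. They gave 0.528 Hox UMIs per well against 14.6 per Fb well.

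In single fibroblast wells, pairs close in number had a higher median of shared wells over expectation than pairs far apart, with exceptions in both directions. The number of wells with both of a pair was set against the number expected from the share of wells with each gene within the same library, for pairs with at least 5 expected wells. This is a description of sparse counts, and wells of a library are not replicates. Among 132 pairs at 6000 UMIs per well (1084 wells), the median of observed over expected was 1.19 for the 37 pairs 0 or 1 apart in number, 1.03 for the 33 pairs 2 or 3 apart and 0.931 for the 62 pairs at least 4 apart. For pairs in different clusters the medians were 1.15 (31 pairs) and 0.902 (53 pairs).

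The pair of paralogues Hoxa10 and Hoxc10, on chromosomes 6 and 15, stood highest. They occurred together in 53 wells against 19.1 expected (2.77 times), and above expectation in 7 of 7 libraries. Hoxa9 with Hoxc10 was found in 68 wells against 32.1 (6 of 7 libraries), Hoxa9 with Hoxc9 in 59 against 31.1 (7 of 7) and Hoxc9 with Hoxc10 in 94 against 52.0 (7 of 7). The lowest pair was 3 apart in number: Hoxa5 and Hoxb2 shared 0 wells against 5.77 expected, below expectation in 7 of 7 libraries. Hoxa10 and Hoxc8, 2 apart, shared 28 wells against 46.4, also below in 7 of 7. Among pairs further apart, Hoxa9 shared 3 wells with Hoxb3 against 9.74 expected and 3 with Hoxb4 against 8.82. Hoxa10 shared 6 wells with Hoxc5 against 14.2 (below expectation in 6 of 7 libraries). Hoxb2, a gene of the hindbrain and neck region in the embryo, shared 12 wells with Hoxb4 against 6.76 expected and 12 with Hoxb3 against 7.15. The counting intervals of these 2 pairs, 0.918 to 3.1 and 0.868 to 2.93 times expectation, include 1. Of the 132 pairs, 8 had an interval wholly above 1 and 9 wholly below. At 3000 UMIs per well, with 66 pairs, Hoxa10 and Hoxc10 were again highest (31 wells against 11.3). The lowest pair at that depth, Hoxa9 and Hoxc5 (2 wells against 9.01), was near expectation at 6000 UMIs (22 against 23.6).

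**Figure D2:**
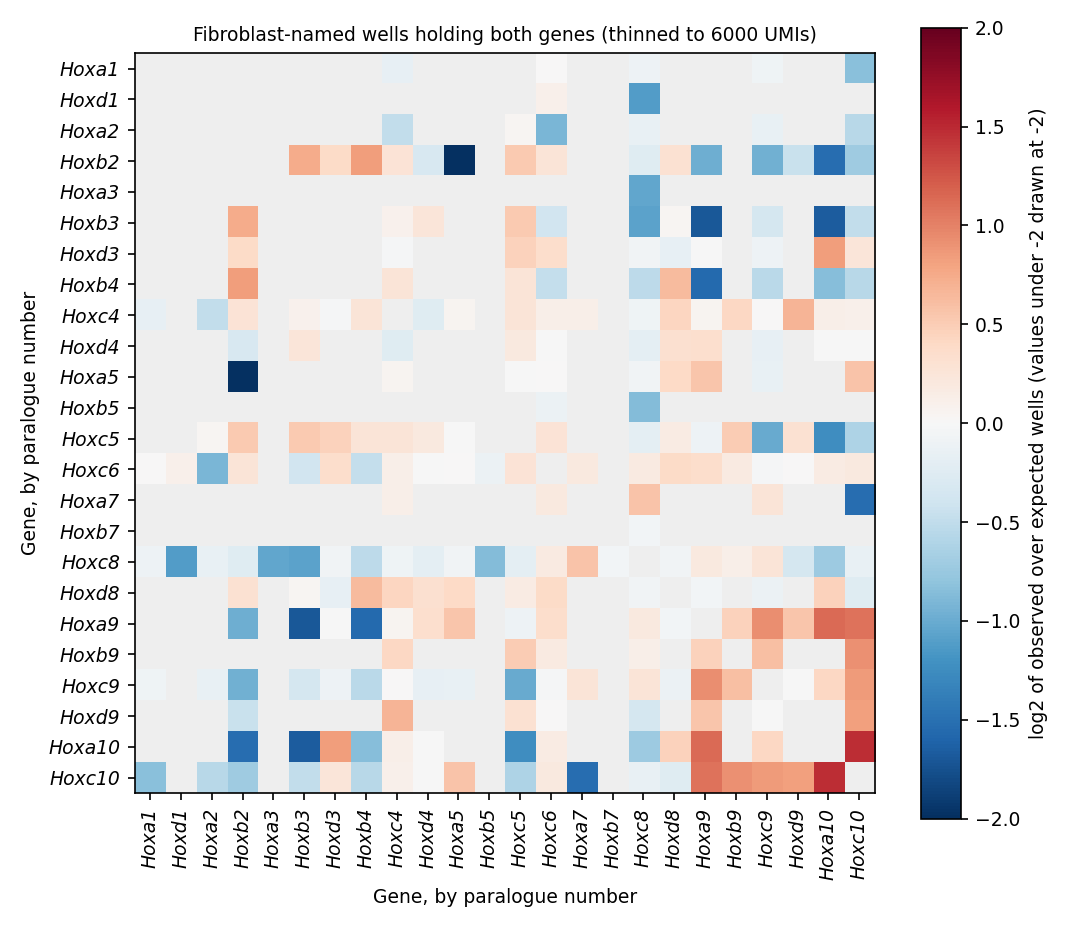
Observed over expected number of Fb wells holding both genes (log2, colour), wells thinned to 6000 UMIs, genes ordered by number on both axes; grey marks pairs with fewer than 5 expected wells. Red squares gather in the corner of genes 9 and 10, of the same and of different clusters, apart from Hoxc9 with Hoxd9 (0.995 times expectation). Blue squares lie where genes 9 and 10 meet Hoxb2, Hoxb3 and Hoxb4. Against Hoxc5, Hoxa10, Hoxc9 and Hoxc10 are blue, while Hoxb9 (1.42 times) and Hoxd9 (1.24 times) are red.

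The first comparison asked how Hox levels of condensate wells (DC0, DC1 and DC2 summed) differed from Fb wells of the same library. It used libraries 1 to 6, with 10 to 15 condensate wells and 56832 to 380695 UMIs in each. Hoxb2 and Hoxa10 were lower in condensate wells and Hoxd9, a gene of the lower trunk and limbs, was higher. Of 39 members 16 had enough UMIs to be tested, of which 1 was called higher and 2 lower, where 10.4% of all 9640 genes were called higher and 13.2% lower (edgeR quasi-likelihood test, library as a block, Benjamini-Hochberg adjusted p under 0.05). The median log2 fold change of the 16 members was -0.01, and of all genes tested -0.03.

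Hoxb2 was at 26.3, 20.2, 20.7, 20.6, 15.6 and 19.2 CPM in Fb sums of libraries 1 to 6. In condensate sums it was at 7.42 CPM (1 UMI) in library 4, 5.25 CPM (2 UMIs) in library 5 and 0 in the other 4. The floor of 3 counts was 33.2 and 52.8 CPM in the condensate sums of libraries 1 and 2, above every Fb value, so a 0 there does not show a lower level. In libraries 3 and 6 it was 11.3 and 14 CPM, below the Fb value. The log2 fold change over the 6 libraries was -2.93 (SE 0.676, edgeR adjusted p = 0.000925).

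Hoxa10 was at 18.8, 21.9, 25.1, 19.2, 19.9 and 23.4 CPM in Fb sums. In condensate sums it was at 0, 0, 7.52, 14.8, 2.63 and 0 CPM, from 5 UMIs in all. The zeros of libraries 1 and 2 again lie under floors above the Fb values, while libraries 3 to 6 each stood below their Fb sum by value. The log2 fold change was -2.37 (SE 0.589, edgeR adjusted p = 0.00213).

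Hoxd9 was at 9.41, 10.96, 9.94, 7.32, 12.6 and 9.32 CPM in Fb sums and at 33.2, 35.2, 11.3, 29.7, 26.3 and 79.3 CPM in condensate sums. It was higher by value in 6 of 6 libraries, although the condensate value of library 3 lay below the Fb value of library 5. The condensate values rest on 3, 2, 3, 4, 10 and 17 UMIs. In libraries 1 to 3 their counting intervals (6.855 to 97.15, 4.262 to 127.1 and 2.327 to 32.98 CPM) include the Fb value of the same library. The log2 fold change was 1.65 (SE 0.410, edgeR adjusted p = 0.00220). Without library 6, whose 79.3 CPM was the highest, it was 1.13 with edgeR adjusted p = 0.0922.

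Libraries 8 and 9 did not enter that fit, since they hold no Fb wells. Their condensate wells had Hoxd9 at 25.1 CPM (DC0), 29.4 CPM (DC2) and 26.4 CPM (DC1), each above the 6.05 to 12.6 CPM of the 7 Fb sums. Hoxa10 was at 10.8, 4.41 and 9.74 CPM there, each below the lowest Fb value of 15.8 CPM. Hoxb2 was at 6.10 CPM in DC0 and 6.26 CPM in DC1, below all Fb sums, and at 16.2 CPM in DC2, within the Fb range of 15.6 to 26.3 CPM.

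The 3 calls held within the libraries of the shared run alone (log2 fold changes of -3.06 for Hoxb2, -2.79 for Hoxa10 and 1.58 for Hoxd9, edgeR adjusted p of 0.0098, 0.00485 and 0.0278). In the other libraries alone the values were -2.78, -1.66 and 1.70, and none passed (adjusted p of 0.182, 0.434 and 0.205). A test of whether the difference depended on the shared run (libraries 3, 5 and 6 against libraries 1, 2 and 4) called 0 of 16 members and 4 of all 9640 genes. The labels name no run for library 4, so its side in that split is not given by them. The smallest edgeR adjusted p of the members was 0.817, with 0 at an unadjusted p under 0.05. With at least 50 UMIs in total as the filter, 2 further members passed: Hoxa2 was lower (-2.39, SE 0.896, edgeR adjusted p = 0.0400) and Hoxd1 higher (2.01, SE 0.666, adjusted p = 0.0172).

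Hoxc8 was at 121.9, 334, 195.6, 148, 278 and 462 CPM in condensate sums, higher than Fb in 5 of 6 libraries, with overlapping groups (log2 fold change 0.26, SE 0.169, edgeR adjusted p = 0.293). Hoxc6 and Hoxc10 had log2 fold changes of 0.01 (SE 0.225) and 0.00 (SE 0.265), each higher in 3 of 6 libraries. Markers of some other cell types moved with the groups. The 4 neuron markers summed to 78.8 to 174 CPM in Fb and 121.8 to 617 CPM in condensate sums, and the 5 endothelial markers to 3.48 to 9.995 CPM and 7.88 to 106 CPM, with Emcn at 0 in condensate sums. The 6 keratinocyte markers gave 35.0 to 450.3 CPM and 14.8 to 413 CPM. The 6 Schwann markers summed to 10.7 to 30.3 CPM in Fb and 4.67 to 33.2 CPM in condensate sums, where Foxd3 and Erbb3 were at 0. The part of neuron or endothelial RNA in these results was not tested.

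**Figure D3:**
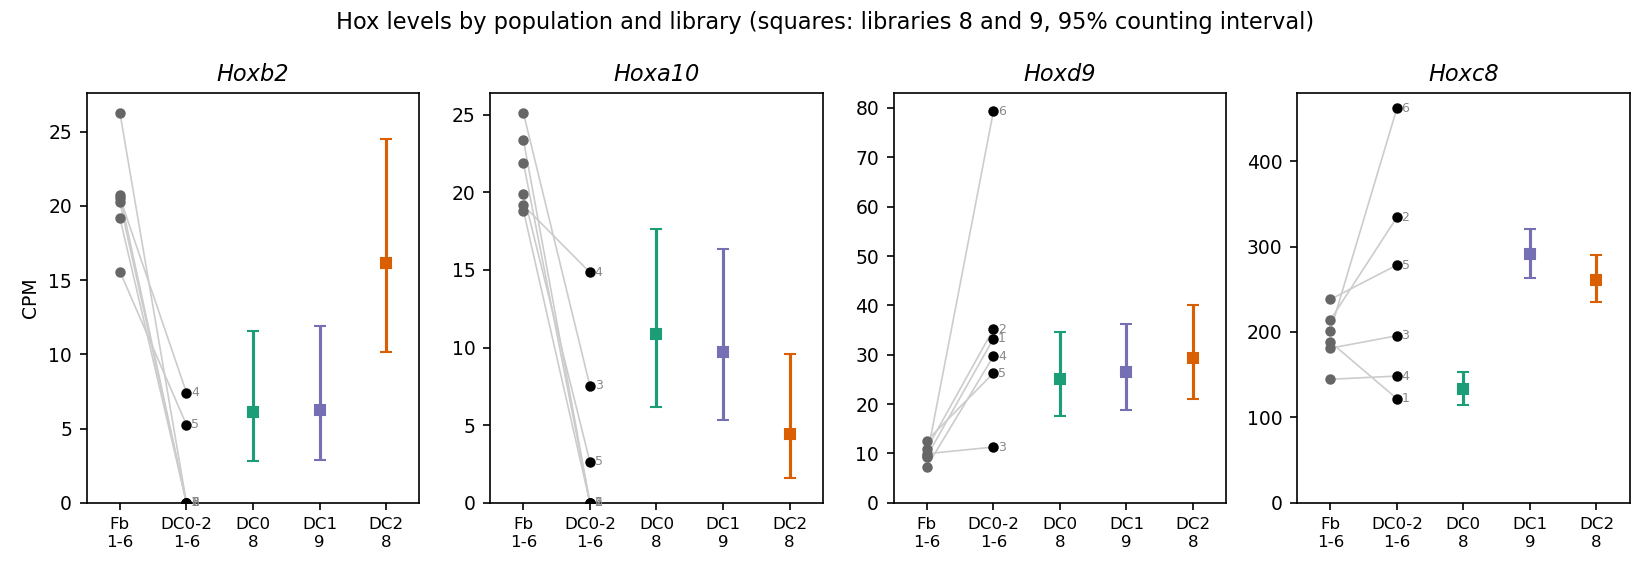
CPM of Hoxb2, Hoxa10, Hoxd9 and Hoxc8 in Fb and condensate sums of libraries 1 to 6, joined by library (numbers beside the points), and, as squares with 95% counting intervals, in DC0 and DC2 wells of library 8 and DC1 wells of library 9. Condensate points of Hoxb2 and Hoxa10 lie below the Fb points, those of libraries 1 and 2 at 0 UMIs with floors of 33.2 and 52.8 CPM, and those of Hoxd9 above the Fb point of the same library.

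The stage comparisons took libraries 1 to 8 in 1 fit, leaving out sums of a single well, and tested 25 of the 39 members among 12233 genes with at least 50 UMIs in total. In that fit the median log2 fold change of all genes was -0.39 for DC0, -0.35 for DC1 and -0.42 for DC2, each against Fb. With scaling factors taken from better-filled genes, an alternative chosen after seeing these medians, they were -0.13, -0.11 and -0.09. Calls higher and lower over all genes moved accordingly, from 335 and 1343 to 476 and 825 for DC0, from 495 and 1318 to 686 and 865 for DC1, and from 662 and 2326 to 1006 and 1409 for DC2. With RLE scaling they were 479 and 820, 739 and 800, and 1186 and 1223. Falls against Fb are therefore read against those medians. The 3 comparisons with Fb share their Fb sums.

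Between DC0 and Fb, 0 of 25 members were called higher and 1 lower, where 2.74% and 11% of all genes were. The median of the members was -0.73. Hoxb2 had 0 UMIs in 6 of 7 DC0 sums and 2 UMIs in library 5, and its log2 fold change was -2.86 (SE 0.756, edgeR adjusted p = 0.00315). The 6 sums at 0 have floors of 3 counts above the Fb levels (42.1 CPM at least), so no single library shows the fall there. Over libraries 1 to 7 together its DC0 level was 0.227 of the Fb level (counting interval 0.0274 to 0.822). The call was lost with DESeq2 (-1.92, adjusted p = 0.171) and within the shared run (edgeR, -1.93, adjusted p = 0.311). With RLE scaling Hoxd9 was also called, as higher (1.50, edgeR adjusted p = 0.0370). Without the library block 5 members were called, Hoxd9 higher and Hoxb2, Hoxa10, Hoxa2 and Hoxc5 lower, and the share of all genes in that fit is not given here. Hoxc8, not called with all libraries (-0.79, edgeR adjusted p = 0.0588), was lower without library 7 (-1.33, adjusted p = 0.00146). Without library 3, Hoxa10 (-2.16, edgeR adjusted p = 0.0490) and Hoxd9 (1.49, adjusted p = 0.0367) passed.

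Between DC1 and Fb, 1 of 25 members was called higher and 3 lower, where 4.05% and 10.8% of all genes were. The median of the members was -0.62. No UMI of Hoxa10, Hoxb2 or Hoxa2, which patterns the hindbrain and the second arch, was found in the DC1 wells of libraries 1 to 7, which held 490585 UMIs. Against the Fb level of those libraries and a floor of 3 counts over the group, Hoxa10 was at least 3.43-fold lower, Hoxb2 at least 3.21-fold lower and Hoxa2 at least 1.30-fold lower (edgeR adjusted p of 0.000239, 0.000361 and 0.0163). Within single libraries the floors were 18.3 to 149.1 CPM, so these falls rest on the libraries together. The DC1 wells of library 9 did hold them: 14 UMIs of Hoxa10 (9.74 CPM), 9 of Hoxb2 (6.26 CPM) and 3 of Hoxa2 (2.09 CPM). There Hoxa10 and Hoxb2 lay above the group floor of 6.115 CPM behind the bounds, so their bounds hold for libraries 1 to 7 only. The Fb levels behind the bounds were 20.99 CPM for Hoxa10 and 19.65 CPM for Hoxb2. The Hoxa2 call was lost without library 6 (edgeR adjusted p = 0.0720).

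Hoxd9 in DC1 sums was at 48.1, 49.7, 25.8, 19.4, 24.1, 67.3 and 0 CPM in libraries 1 to 7, from 3, 1, 2, 1, 2, 11 and 0 UMIs. Its log2 fold change against Fb was 1.46 (SE 0.510, edgeR adjusted p = 0.0334), higher in 6 of 7 libraries. The call was lost without library 1 (edgeR adjusted p = 0.0888) and without library 6 (log2 fold change 1.14, adjusted p = 0.247).

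Between DC2 and Fb, 2 of 25 members were called higher and 5 lower, where 5.41% and 19.0% of all genes were. The median of the members was -0.69. The members called higher were Hoxd1, the gene at the head end of HoxD, and Hoxd4. With RLE scaling 3 were called higher and 2 lower (Hoxd3 joined at 1.50, SE 0.522, edgeR adjusted p = 0.0293, while Hoxa9, Hoxc5 and Hoxb2 dropped out), and the factors from better-filled genes gave the same counts.

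Hoxd1 was at 3.47, 0.843, 1.69, 0.697, 2.15, 4.22 and 4.21 CPM in Fb sums. In DC2 sums of libraries 1 to 7 it was at 0, 0, 25.6, 41.9, 18.8, 0 and 10.96 CPM, from 8 UMIs, so that 4 libraries stood above their Fb sum and 3 had no UMI. The log2 fold change was 2.49 (SE 0.680, edgeR adjusted p = 0.00239). It did not pass within the libraries of the shared run (2.38, edgeR adjusted p = 0.0508) or in the others (3.26, adjusted p = 0.164).

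Hoxa10 had 2 UMIs in DC2 sums of libraries 1 to 7, both in library 4, and a log2 fold change of -2.78 (SE 0.755, edgeR adjusted p = 0.00215). Floors of 3 counts were 25.6 to 1051 CPM in these sums, so that a library with no UMI does not show a fall of a member at the Fb level of Hoxa10. Over libraries 1 to 7 together its DC2 level was 0.243 of the Fb level (counting interval 0.0294 to 0.882). Hoxb9 had 0 UMIs in these 7 sums (edgeR adjusted p = 0.00301), but the floor of 3 counts, 7.65 CPM, lies above its Fb level of 7.35 CPM, so no fold is given. Both calls were lost with DESeq2 (adjusted p of 0.251 and 0.549). Hoxa9 had 2 UMIs in library 5 alone (-1.83, SE 0.598, edgeR adjusted p = 0.0138), and its level over libraries 1 to 7 together was 0.185 of the Fb level (0.0224 to 0.670). Hoxc5 was at 0, 62.5, 25.6, 0, 9.42, 186 and 0 CPM in DC2 sums (-1.55, SE 0.517, edgeR adjusted p = 0.0160), with no UMI in 3 libraries. It did not pass without library 7 (-1.22, edgeR adjusted p = 0.0948) or library 8 (-1.34, adjusted p = 0.0999).

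Hoxb2 in DC2 sums had a log2 fold change of -1.90 (SE 0.718, edgeR adjusted p = 0.0372), with 1 UMI each in libraries 4 and 7 and 0 in the other 5 of libraries 1 to 7. The call was lost in 15 of 20 alternatives, among them leaving out any one of libraries 1, 2, 3, 6, 7 and 8 (edgeR adjusted p from 0.0506 to 0.166) and the fit without the library block (-0.89, adjusted p = 0.0517). Hoxd4 was at 0, 187, 42.7, 20.9, 37.7, 93.1 and 0 CPM in DC2 sums against 5.79 to 14.6 CPM in Fb sums, higher in 5 of 7 libraries (1.33, SE 0.516, edgeR adjusted p = 0.0433). With wells thinned to 3000 UMIs it was 0.12 (edgeR adjusted p = 0.950). It did not pass without library 2 (0.94, edgeR adjusted p = 0.236), library 3 (0.0889), library 5 (0.130) or library 8 (0.0630).

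Among the stages themselves few members differed. Between DC1 and DC0 0 of 25 members were called in either direction by edgeR, where 0.352% of all genes were called higher and 0.0981% lower. An unadjusted edgeR p under 0.05 was reached by 5 of 25 members and by 1012 of all 12233 genes, and DESeq2 called 0 members. Between DC2 and DC1 0 of 25 were called, where 0.368% and 0.785% of all genes were. Here 5 of 25 members and 1388 of all 12233 genes had an unadjusted edgeR p under 0.05, and DESeq2 called 0 members. In simulated data of the same size, 47.9% of genes changed 4-fold between DC1 and DC0 and 2.70% of those changed 2-fold were recovered at a mean of 3 to 8 log2 CPM. Every simulated gene had the same spread and no library effect, so recovery in the real sums may differ. Even in that setting, changes of 2-fold were rarely detected at this depth.

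Hoxc8 came closest between DC1 and DC0. It was at 39.9, 193, 84.2, 112, 83.6, 125 and 493 CPM in DC0 sums of libraries 1 to 7 and at 144.4, 99.4, 517, 136, 373, 563 and 368 CPM in DC1 sums. The log2 fold change was 1.21 (SE 0.330, edgeR adjusted p = 0.0557), higher in 5 of 7 libraries. All 32 Hoxc8 UMIs of the library 7 DC0 sum came from 1 of its 2 wells. Without library 7 the log2 fold change was 1.76 (SE 0.359, edgeR adjusted p = 0.000567), and it also passed without libraries 1, 2 or 4 (adjusted p of 0.0261, 0.0126 and 0.0275). The levels in the full plates were 132.8 CPM for DC0 in library 8 and 291 CPM for DC1 in library 9.

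Hoxc10 went the other way by value: 39.9, 193, 98.2, 169, 178, 225 and 0 CPM in DC0 sums and 16.0, 49.7, 12.9, 0, 48.1, 42.8 and 153.4 CPM in DC1 sums (-1.56, SE 0.487, edgeR adjusted p = 0.150), lower in 6 of 7 libraries. Without library 7 it passed (-2.18, edgeR adjusted p = 0.00857). The full plates gave 65.7 CPM for DC0 and 58.5 CPM for DC1.

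Between DC2 and DC0, 1 of 25 members was called higher and 1 lower, where 3.47% and 3.61% of all genes were. With RLE scaling all genes split into 609 higher and 298 lower, against 424 and 441, and with DESeq2 into 365 and 149; for DC2 against DC1 the split was 45 and 96, with RLE 63 and 50, and with DESeq2 38 and 24. Hoxd1 gave no UMI in the DC0 wells of libraries 1 to 7 (448961 UMIs) and 5 UMIs in the DC0 wells of library 8. In DC2 wells it gave 71 UMIs in library 8. The log2 fold change was 4.09 (SE 0.814, edgeR adjusted p = 8.64e-05), higher in 5 of 8 libraries and equal at 0 UMIs in 3. It passed in 18 of 19 alternatives that tested it and was lost within the shared run alone (edgeR adjusted p = 0.178). Without library 8 it passed too (edgeR adjusted p = 0.0228). Summed markers of 2 other cell types had a higher median in DC2. The 4 neuron markers summed to 62.5 to 1289 CPM in DC2 (median 498, Snap25 at 0), 15.4 to 435 CPM in DC0 (median 147, Snap25 at 0) and 78.8 to 174 CPM in Fb (median 135). The 5 endothelial markers summed to 0 to 350.3 CPM in DC2 (median 54.2, Emcn at 0), 0 to 96.6 CPM in DC0 (median 2.03, Cldn5 at 0) and 3.48 to 9.995 CPM in Fb (median 7.75). Their part in the DC2 results was not tested. Without library 7, Hoxc8 (1.24, edgeR adjusted p = 0.00890) and Hoxc10 (-1.26, adjusted p = 0.0333) passed as well. Hoxb9, a gene of the thoracic region, was lower (-3.64, SE 1.11, edgeR adjusted p = 0.0224), but not without library 2 (-3.38, adjusted p = 0.0724) or library 8 (adjusted p = 0.339).

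Library 8 gives the closest view of DC0 and DC2, since both filled a plate in common. Its intervals cover counting error only and treat UMIs as independent, although Hoxc8 gave up to 37 UMIs in 1 well. Hoxd1 was at 52.2 CPM in DC2 and 3.39 CPM in DC0, a ratio of 15.4 (6.30 to 48.9), with a UMI in 22 DC2 wells (18.03% of the plate's) and 3 DC0 wells (2.42%) and at most 14 UMIs in a well. In DC1 wells of library 9 it was at 6.26 CPM. Hoxb4 was 5.61 times as high in DC2 (2.31 to 16.4), Hoxd4 2.92 times (1.51 to 6.02), Hoxb2 2.65 times (1.17 to 6.55), Hoxc8 1.97 times (1.65 to 2.35) and Hoxc6 1.47 times (1.06 to 2.05). Hoxb9 was at 0.0987 (0.00229 to 0.679) and Hoxc10 at 0.694 (0.496 to 0.964) of its DC0 level. The other 10 of 18 members with at least 10 UMIs had intervals that include 1. The share of all genes with an interval that leaves out 1 is not given here, so this count is not read as a trait of Hox genes. In the fit over libraries only Hoxd1 and Hoxb9 were called between DC2 and DC0 (edgeR adjusted p = 0.134 for Hoxd4 and 0.271 for Hoxc8). All Hox members together were at 521 CPM in DC0, 722 CPM in DC2 and, in library 9, 759 CPM in DC1.

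**Figure D4:**
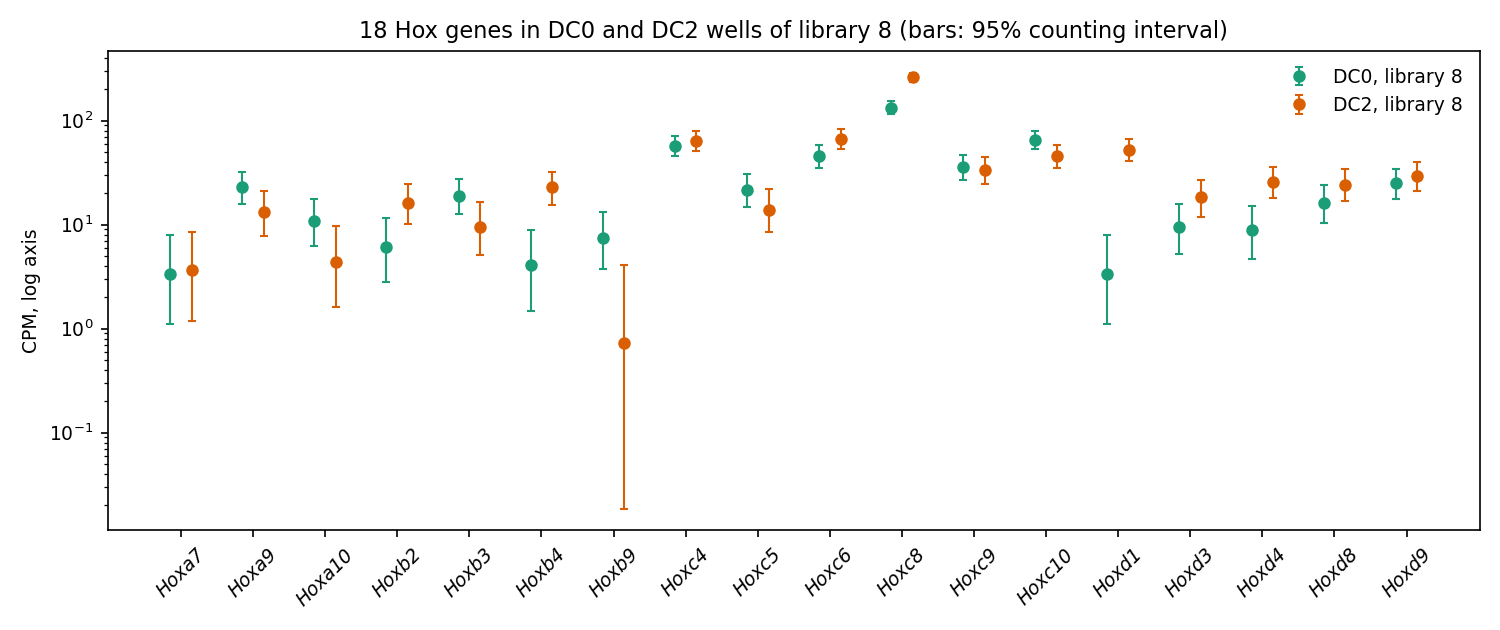
CPM on a log axis in the DC0 and DC2 wells of library 8 for the 18 members with at least 10 UMIs there; bars are 95% counting intervals. Hoxd1 shows the widest gap between the populations, 52.2 against 3.39 CPM.

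By cluster, the share of HoxD in Hox UMIs was 21.3% in DC2 and 12.1% in DC0 wells of library 8, 9.90% in DC1 wells of library 9 and 6.21% to 10.7% in the 7 Fb sums. HoxA took 10.5% to 14.97% in Fb sums, and 9.24% in DC0, 8.34% in DC1 and 3.77% in DC2 in the full plates. The full plates hold no Fb wells, and DC1 filled a different plate from DC0 and DC2. Only DC0 and DC2 are therefore compared within a plate here, and the other differences in share cannot be told apart from those between plates. HoxC was the main cluster, at 69.0%, 74.7% and 67.3%. The mean number of the gene a Hox UMI came from was 6.55 to 7.22 in Fb sums, 7.07 in DC0, 7.14 in DC1 and 6.50 in DC2 of the full plates.

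Shares of wells with a UMI, at 3000 UMIs per well, come from the same UMIs as the levels. They are given for Hoxd1, Hoxd9 and Hoxb2, which passed a test, and for Hoxc8. Shares did not follow the levels for every member. Hoxa2 was found in 2.30% of DC2 and 1.9% of Fb wells, with a log2 fold change of -2.35. Hoxd4 was found in 0.870% of DC0 and 4.33% of Fb wells, at mean levels of 12.1 and 10.3 CPM. Hoxd1 was found in 13.8% of 87 DC2 wells (7.33% to 22.9%) and in 0.952% of Fb, 0.870% of DC0 and 2.16% of DC1 wells. Hoxd9 was found in 2.86% of Fb wells, 10.4% of DC0, 11.5% of DC1 and 6.90% of DC2 wells. Hoxb2 was found in 5.63% of Fb wells and in 0.870%, 1.44% and 2.30% of DC0, DC1 and DC2 wells. Hoxc8 was found in 22.6% of 115 DC0 wells (15.3% to 31.4%), 51.8% of DC1 wells (43.2% to 60.4%) and 46.0% of DC2 wells (35.2% to 57.0%). Unthinned, the Hoxc8 shares were 44.3%, 71.7% and 43.1%, at median depths of 12773, 10469 and 8333 UMIs. In wells named for spike-ins, Hoxc8 was found in 11.1%, Hoxd9 in 0.694% and Hoxd1 and Hoxb2 in 0 (upper 95% exact bound 2.53%).

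**Figure D5:**
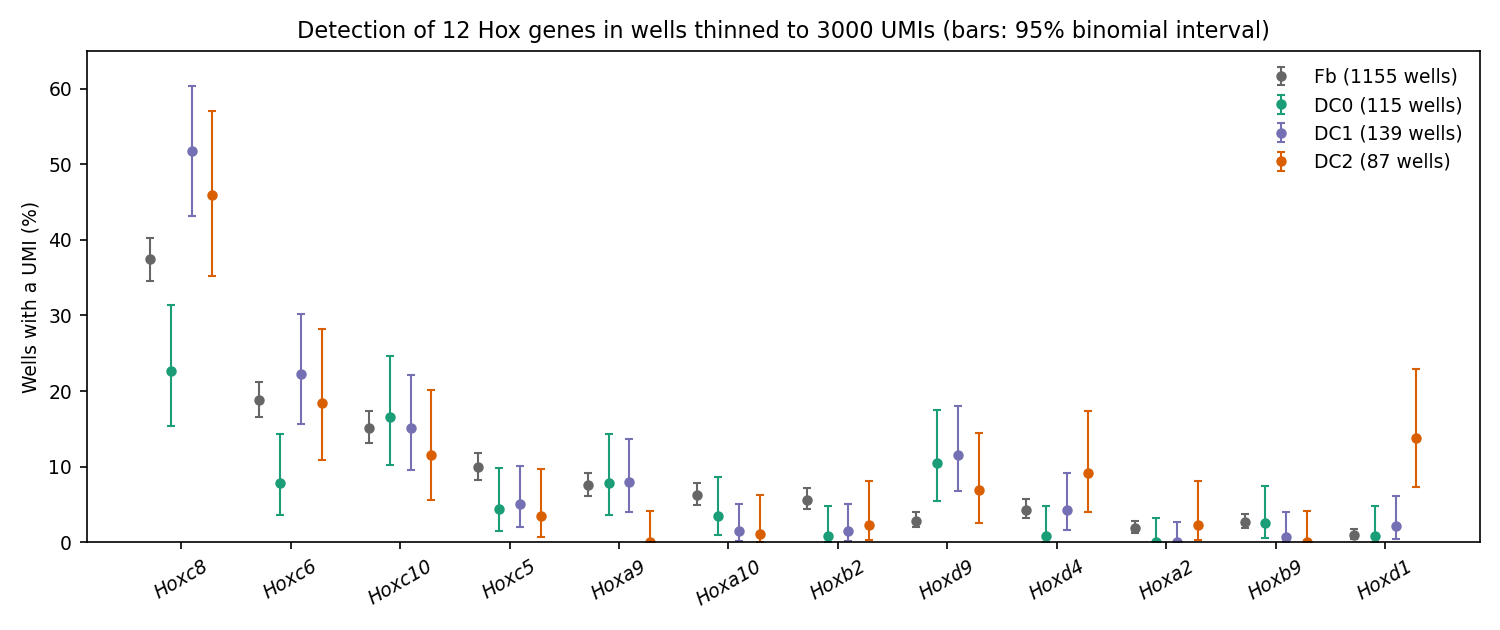
Share of wells with at least 1 UMI for 12 Hox genes in the 4 populations, wells thinned to 3000 UMIs, with exact 95% binomial intervals for counting error. Hoxd1 stands at 13.8% in DC2 and at most 2.16% elsewhere, and Hoxc8 at 22.6% in DC0 against 37.4% in Fb.

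Genes that work with or on Hox genes were counted from 4 lists. Of 11 TALE cofactors, 8 were tested between condensate and Fb wells, with 3 higher and 1 lower, where 10.4% and 13.2% of all genes were (median log2 fold change 0.26, and -0.03 over all genes). Tgif1 (1.69, SE 0.273, edgeR adjusted p = 5.23e-06) and Meis3 (1.19, SE 0.315, adjusted p = 0.00413) were among those higher, while Meis2 was lower (-1.73, SE 0.284, adjusted p = 7.15e-06). Meis2 was lower than Fb in all 3 stages (-1.36, -2.54 and -2.28 for DC0, DC1 and DC2, edgeR adjusted p at most 0.00562). In the stage fit 9 cofactors were tested, with 1 higher and 1 lower for DC0, 3 and 1 for DC1, and 2 and 1 for DC2. Over all genes 2.74% were higher and 11% lower for DC0, 4.05% and 10.8% for DC1, and 5.41% and 19.0% for DC2.

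Of 21 chromatin regulators of Hox clusters, 18 were tested, with 5 higher and 1 lower, where 10.4% and 13.2% of all genes were (median 0.49, and -0.03 over all genes). The H3K27 demethylase Kdm6b was higher (0.99, SE 0.183, edgeR adjusted p = 4.79e-05), with the Polycomb members Phc1 (0.87) and Jarid2 (0.72), and Eed, a Polycomb subunit, was lower (-1.40, SE 0.364, adjusted p = 0.00338). In the stage fit the list had 0 higher and 1 lower for each stage against Fb: Eed in DC0 and DC1, and Wdr5 in DC2. Of all genes 2.74% to 5.41% were higher and 10.8% to 19.0% lower there.

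Of 25 other position factors, 9 were tested, with 4 higher and 4 lower, where 10.4% and 13.2% of all genes were (median 0.05, and -0.03 over all genes). Alx4 (3.92, SE 0.383) and Tbx18 (2.08, SE 0.153) were higher, and En1 (-2.26, SE 0.373) and Emx2 (-3.55, SE 0.611) lower (largest edgeR adjusted p of the 4 = 1.55e-05). Alx4 and Hoxd1 were both higher in DC2 than in DC0 (3.60, SE 0.478, for Alx4). Against Fb, 15 position factors were tested in the stage fit, with 3 higher and 4 lower for DC0, 3 and 5 for DC1, and 1 and 4 for DC2, where 2.74%, 4.05% and 5.41% of all genes were higher and 11%, 10.8% and 19.0% lower. Of the noncoding RNAs of the clusters, Hoxa11as and Hotair were in the table, and neither had enough UMIs to be tested.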

How the data were processed

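Single cells were profiled by SORT-seq, a plate form of CEL-Seq2 that tags the 3′ end of each RNA molecule, per the labels' protocols. The authors deposited expected counts, that is UMI counts per gene and well raised to allow for molecules that share 1 of 4096 UMI sequences: 0 of 7480233 values above 0 differed from that formula by over 0.005. The submitters' processing notes name mm10, BWA 0.6.2-r126, Cufflinks 2.1.1, Bowtie2 and TopHat2 2.0.3, without saying which served these wells. The table holds 20284 genes, 86 spike-in rows and 1967 wells, of which 0 share a name, although the names hold the library, so cell barcodes could not be compared between libraries. The 12 bulk samples of the series were not used here. No doublet caller was run, since counts were summed by the deposited well names.

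Values were rounded to whole UMIs, which changed 13.5% of them and gave 101.2% of the UMIs recovered from the formula. They were summed per library and population, with spike-in rows left out. Sums were tested with edgeR 4.0.16 (R 4.3.3, quasi-likelihood F test, TMM scaling, Benjamini-Hochberg adjusted p under 0.05, all genes in 1 fit) with library as a block. Condensate against Fb used filterByExpr and libraries with at least 10 condensate wells, and stages used genes with at least 50 UMIs in total and sums of at least 2 wells. DESeq2 1.42.0 was an alternative. The block stands because the sums of a library share a plate, and same-library deviations correlated at 0.082 to 0.223 over 6 libraries. On simulated data of the same size as condensate against Fb, 82.9% of genes changed 4-fold and 15.1% of those changed 2-fold were recovered at 3 to 8 log2 CPM. The simulation gave every gene the same spread and no library effect, so real recovery may differ. Detection used wells thinned to 3000 or 6000 UMIs, leaving 1155 or 1084 Fb, 115 or 109 DC0, 139 or 119 DC1 and 87 or 82 DC2 wells. Intervals are exact at 95% and cover counting error only.

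The members and the lists of other genes were chosen with earlier results of these data known. Given in every library were members with a mean of at least 50 CPM in Fb and those called in a comparison, at most 12 of each. Other lists named at most 4 called genes per comparison, and some genes of these lists are not reported here. Members named beyond that rule, such as Hoxb4 or the co-detected pairs, were chosen after their values were seen.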

Additional observations from a re-analysis of the deposited data

Results flagged for a closer look

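In 44 groups of sums, those of Fb (7 libraries) and of condensate wells (6 libraries), 8 held a library whose CPM stood far from the nearest other, by Dixon's criterion at 95%. Its rate of about 1 in 20 groups marked by chance holds for normally spread values. It may not hold for sparse counts with zeros, so the 8 are not read as an excess. In Fb sums, Hoxb1 was at 5.23 CPM in library 4 and at most 1.06 CPM in the others, Hoxb5 was at 5.45 CPM in library 6 against 1.52 to 2.79 CPM, and Hoxc5 was at 21.1 CPM in library 2 against 35.2 to 41.1 CPM. In condensate sums the distances rest on few UMIs: Hoxa2 at 5.25 CPM in library 5 (2 UMIs) against 0, Hoxb9 at 52.8 CPM in library 2 (3 UMIs) against 0 to 9.33 CPM, and Hoxd4 at 70.4 CPM in library 2 (4 UMIs) against 4.67 to 28.9 CPM. Hoxa9 was at 88.6 CPM in library 1 (8 UMIs) against 0 to 32.7 CPM, and Hoxd9 at 79.3 CPM in library 6 (17 UMIs) against 11.3 to 35.2 CPM. Wells named for spike-ins, which are outside every comparison, held 76 Hox UMIs in 41 wells (28.5% of them), of which 19 were Hoxc8. Where these UMIs come from was not tested.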

How the results depend on the processing

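Of the alternative values for the members called, 248 kept direction and call, 74 kept direction only and 0 reversed. Without the library (replicate) block, 5 members were called for DC0 against Fb in place of 1, and 10 for DC2 against Fb in place of 7. For condensate against Fb, 3 members were called: 0 with wells thinned to 3000 UMIs (where none of the 3 had enough UMIs to be tested), 0 in the libraries outside the shared run, and 5 both with at least 50 UMIs and with no filter. Libraries outside the shared run are those whose labels do not name it. Libraries 4 and 8 name no run, so whether they belong to it is not known. For DC0 against Fb the count of 1 became 2 with RLE scaling, thinning or factors from better-filled genes (an alternative chosen after seeing the data), and 0 with DESeq2, within the shared run, outside it or with filterByExpr. For DC1 against DC0 the count of 0 became 1 with recovered UMIs and 1 within the shared run. For DC2 against DC0 the count of 2 became 1 with DESeq2, thinning or the libraries outside the run, and 0 within the run or with filterByExpr. For DC1 against Fb the count of 4 became 2 with thinning, and 0 outside the run or with filterByExpr. For DC2 against Fb the count of 7 became 2 with DESeq2, thinning or the shared run, 3 with at least 5 wells, and 0 outside the run or with filterByExpr. filterByExpr left fewer members to test in the stage fits. Calls over all genes changed with the setting as well. For DC2 against Fb they went from 662 higher and 2326 lower to 1186 and 1223 with RLE scaling and 1251 and 780 with DESeq2. Counts over all genes are not given here for fits without the block, with thinning or with libraries left out. Changes in the member counts are therefore not read as particular to Hox genes.

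Leaving out 1 library at a time gave 2 to 3 calls for condensate against Fb, 1 to 3 for DC0 against Fb, 0 to 2 for DC1 against DC0, 0 to 0 for DC2 against DC1, 1 to 4 for DC2 against DC0, 2 to 5 for DC1 against Fb and 4 to 8 for DC2 against Fb. The share of wells with any Hox UMI depended on depth. For Fb wells it was 88.5% unthinned, 95% at 6000 UMIs and 83.2% with at least 2 UMIs unthinned, against 80.0% at 3000. For DC0 it was 83.2% unthinned and 89.0% at 6000, against 71.3%. For DC1 it was 95.4% and 96.6%, against 85.6%. For DC2 it was 67.5% unthinned, 95.1% at 6000 and 61.6% with at least 2 UMIs, against 87.4%. The causes of these changes were not tested beyond the number of libraries, genes and UMIs that each alternative leaves.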
